A study of Rattus norvegicus with 6 samples.

Results

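The genes described here encode the motors, tubulins, microtubule-associated proteins, stathmins and neurofilaments of the neuronal cytoskeleton, measured in the prelimbic cortex (PL) of rats after spared nerve injury (SNI). Members were the genes whose symbol in the platform annotation starts with Kif, Klc, Dync, Dctn, Tuba, Tubb or Tubg, together with 14 further symbols for microtubule-associated proteins (Map1a, Map1b, Map2, Map4, Map6, Mapt), stathmins (Stmn1 to Stmn4) and neurofilaments (Nefl, Nefm, Nefh, Ina). A member had to be read by at least 1 probe set that carried no other symbol. This gave 79 of the 14217 genes on the arrays, read by 129 of 31042 probe sets, and all 79 were tested. The SNI group (n = 3) consisted of male Sprague Dawley rats whose tibial and common peroneal branches of the left sciatic nerve were cut while the sural nerve was left whole. The second group (n = 3) is labelled only as control. The surgical protocol given with all samples describes a sham operation in which the nerves were exposed and left uncut, but it does not say that these controls were the sham rats. RNA was taken 14 days after surgery from the PL opposite to the injury. The rats were obtained at 6 to 7 weeks of age. Neither the labels nor the methods state whether each sample was a separate animal. A p-value here therefore sets the group difference against the scatter of these samples, and that scatter may be technical.

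Microtubules are polymers of alpha and beta tubulin, nucleated on a ring of gamma tubulin. Kinesins carry vesicles, mitochondria and neurofilaments mostly outward along axons, and cytoplasmic dynein with its activator dynactin carries cargo back to the cell body. Tau (Mapt), Map1b and Map2 bind and stabilize the polymer, stathmins sequester tubulin dimers, and neurofilaments set the calibre of large myelinated axons. Other kinesins act in the mitotic spindle of dividing cells.

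Each value is a log2 intensity minus the median of its probe set over the 6 samples, averaged over the probe sets of a gene, so only differences between samples can be read and no level of one gene can be set against that of another. The controls were the more variable group, with a median SD over probe sets of 0.11 against 0.067 in the SNI group, and control samples 1 and 3 stood apart from the other 4 on the first principal component. The bacterial hybridization controls added to each sample were higher on the SNI arrays (mean 0.11 against −0.16). In pieces of tissue, fewer cells of a type and less RNA per cell cannot be told apart.

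None of the 79 members passed an adjusted p of 0.05 in limma over all genes, where 0% of the 14217 genes passed. The lowest adjusted p among members was 0.21. At an unadjusted p under 0.05, 14 members passed (17.7%), against 13.2% of all genes, and the methods' t-test, adjusted over all genes, also passed none. Lower in the SNI group were 9 of them (11.4%, against 9.19% of all genes) and higher were 5 (6.33%, against 3.96%). These shares lie near those of all genes. Every SNI sample was below every control sample for 14 members (17.7%, against 13.7% of all genes) and above for 5 (6.33%, against 6.39%). In the following, a member is called nominally higher or lower where its unadjusted p was under 0.05, and none of these calls held after adjustment.

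The motors, tubulins and neurofilaments had median log2 differences (SNI group minus control group) of −0.046 over 50 genes, −0.075 over 15 and −0.099 over 4, while the median of all genes was −0.011. Differences between the families were not tested. Among the motors, 3 members were nominally higher and 6 lower, and the differences ran from −0.24 to 0.33. Of the tubulins, counted with the genes of the gamma tubulin ring complex (Tubgcp), 13 of 15 had a difference below 0. These include all 5 genes of gamma tubulin and its ring complex. Only 1 of the 15 was nominally lower and none was higher. All 4 neurofilament genes and all 4 stathmin genes had a difference below 0, with none and 1 nominally lower. The 6 microtubule-associated proteins went both ways, with 2 nominally higher and 1 lower and a median of 0.047. Across all members the median was −0.056, and 65.8% had a difference below 0, as did 54.8% of all genes.

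**Figure D1:**
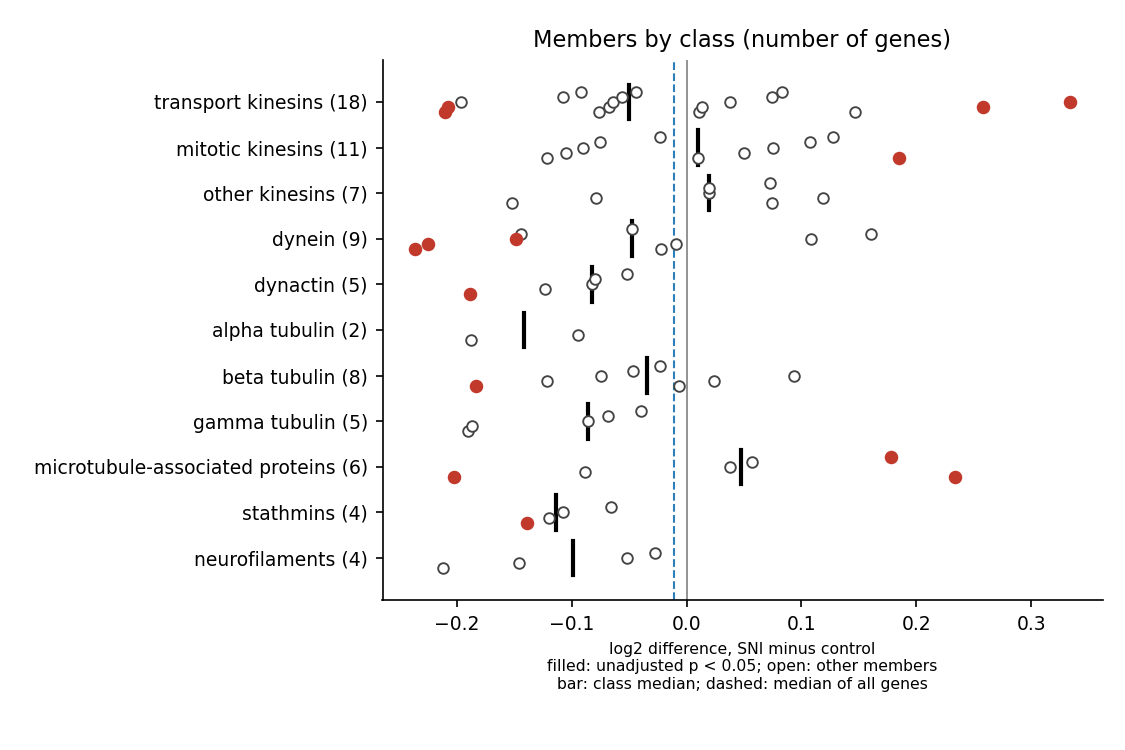
Log2 difference, SNI group minus control group (x axis), of the 79 members in 11 classes (y axis, number of genes in brackets). Each point is a gene, filled where the unadjusted p was under 0.05, the black bar is the median of the class and the dashed line the median of all genes (−0.011). The filled points lie between −0.24 (Dync1li1) and 0.33 (Kif5c), and the other kinesins, neurofilaments, gamma tubulin and alpha tubulin hold none.

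Cytoplasmic dynein 1, the retrograde motor, held the lowest members. All 5 of its measured subunits had a difference below 0, as did 54.8% of all genes, and their median was −0.15. Nominally lower were 3 of the 5 (60%, against 9.19% of all genes), which are also the 3 called among all 9 dynein genes (33.3%). Dync1li1, a light intermediate chain that binds cargo adaptors, had values of −0.19, −0.080 and −0.060 in SNI samples 1, 2 and 3, against 0.16, 0.060 and 0.16 in control samples 1, 2 and 3. Every SNI sample was thus under every control sample, and the log2 difference was −0.24 (SE 0.061, limma adjusted p = 0.216). Dync1i1, the intermediate chain through which the motor meets dynactin, had values of −0.063, −0.14 and −0.13 in the SNI group, against 0.14, 0.063 and 0.14 in the controls. The groups did not overlap, and its difference was −0.23 (SE 0.055, limma adjusted p = 0.21). The heavy chain Dync1h1, which holds the motor domain, had values of −0.058, −0.091 and −0.058 in the SNI group, against 0.069, 0.058 and 0.11 in the controls, again without overlap, and a difference of −0.15 (SE 0.050, limma adjusted p = 0.291). The call of Dync1h1 was lost when SNI sample 2, SNI sample 3 or control sample 3 was left out, whereas those of Dync1li1 and Dync1i1 held with any 1 of the 6 samples left out.

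The second copies of these chains, Dync1i2 and Dync1li2, had differences closer to 0. Dync1i2 was at −0.022 (95% confidence interval −0.19 to 0.14), with values of 0.0021, −0.0021 and −0.083 in the SNI group, against 0.089, −0.14 and 0.036 in the controls. Dync1li2 was at −0.0091 (95% confidence interval −0.14 to 0.12), with values of 0.024, 0.0067 and −0.028 in the SNI group, against 0.086, −0.050 and −0.0067 in the controls. For both, the samples of the groups overlapped. The difference between a chain and its second copy was not tested.

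Dynactin was measured by 5 genes, all with a difference below 0 (median −0.082), of which 1 was nominally lower (20%, against 9.19% of all genes). This was Dctn4, part of the pointed end of the dynactin filament, with values of −0.033, −0.064 and −0.11 in the SNI group, against 0.22, 0.033 and 0.10 in the controls, and a difference of −0.19 (SE 0.064, limma adjusted p = 0.29). Its call was lost without SNI sample 3 and without control sample 1. Dctn1, the large subunit that grips the microtubule, was at −0.051 (95% confidence interval −0.18 to 0.079), and the other 3 lay between −0.12 (Dctn5) and −0.080 (Dctn6). Dynein 2, the motor of cilia, gave −0.14 for its heavy chain Dync2h1 and 0.16 for Dync2i1, and none of its 4 genes was nominally changed.

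A list of 64 other cytoskeleton genes outside the members held dynein light chains, cargo adaptors, dynein regulators, plus-end proteins and tubulin-modifying enzymes. It also held further microtubule-associated genes and the intermediate filament genes Prph, Vim and Nes. Of the 64 genes, 57 were measured, with a median difference of −0.041. Among these, 2 were nominally lower and 3 higher (8.77% in all, against 13.2% of all genes). The 2 lower ones were Pafah1b1 (−0.20), which encodes the dynein regulator Lis1, and its partner Ndel1 (−0.17). Nde1, the close relative of Ndel1, was at 0.13, and the adaptor Bicd2 at −0.041. The 3 higher ones were Hook2 (0.25), an adaptor of dynein, Trak2 (0.24), which links mitochondria to kinesin-1 and dynein, and Clip1 (0.20), which tracks growing plus ends.

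**Figure D2:**
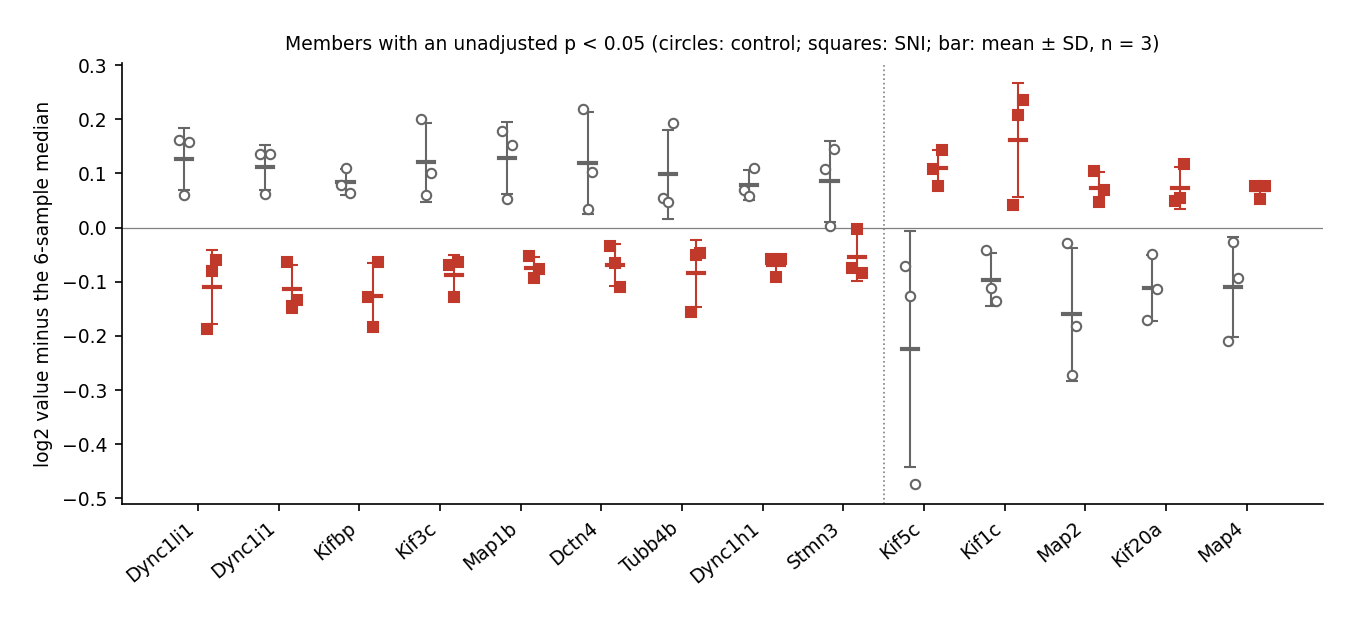
Centred log2 value in each of the 6 samples (y axis) of the 14 members with an unadjusted p under 0.05 (x axis), the 9 lower in the SNI group left of the dotted line and the 5 higher ones right of it. Circles are the 3 control samples and squares the 3 SNI samples, and bars give the mean and SD. In each of the 14 the groups do not overlap, and control sample 3 of Kif5c (−0.47) lies farthest from the rest.

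All 3 heavy chains of kinesin-1, the main anterograde motor, had differences above 0, and 1 was nominally higher (33.3%, against 3.96% of all genes). Kif5c had the highest difference of the members, 0.33 (SE 0.10, limma adjusted p = 0.249). Its values were 0.11, 0.077 and 0.14 in SNI samples 1, 2 and 3, against −0.071, −0.13 and −0.47 in control samples 1, 2 and 3, so that the groups did not overlap but control sample 3 lay far under the other 2. Without control sample 3 the difference was 0.21, still nominally higher, while the methods' t-test did not call it. With the hybridization controls as a covariate it was at 0.045 and not nominally changed. Kif5a had values of −0.036, 0.14 and 0.063 in the SNI group, against −0.024, −0.14 and −0.11 in the controls, with overlap, and a difference of 0.15 (95% confidence interval −0.0048 to 0.30). Kif5b was at 0.074 (95% confidence interval −0.069 to 0.22). The light chains, which bind cargo, held no nominal change, with Klc1 at −0.092, Klc2 at −0.11, Klc3 at 0.013 and Klc4 at 0.083.

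The kinesin-2 genes, whose products carry vesicles and build cilia, all had a difference below 0. Kif3c was nominally lower, at −0.21 (SE 0.059, limma adjusted p = 0.231), with values of −0.068, −0.13 and −0.063 in the SNI group, against 0.20, 0.060 and 0.10 in the controls, and no overlap, and its call held with any 1 sample left out. Kif3a was at −0.20 (95% confidence interval −0.41 to 0.019), with values of −0.12, 0.0042 and −0.035 in the SNI group, against 0.33, −0.036 and 0.14 in the controls. The groups overlapped, as control sample 2 lay among the SNI samples. Without control sample 2 the difference of Kif3a was −0.29 and it was nominally lower. Kif3b (−0.064) and Kifap3 (−0.068), the accessory subunit, were closer to 0.

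Kinesin-3 and its partners were divided. Kif1c, which moves vesicles between the Golgi and the cell periphery, was nominally higher, at 0.26 (SE 0.068, limma adjusted p = 0.216), with values of 0.041, 0.21 and 0.24 in the SNI group, against −0.041, −0.11 and −0.14 in the controls, and no overlap. Kifbp, a protein that binds several kinesins and blocks their hold on the microtubule, was nominally lower, at −0.21 (SE 0.055, limma adjusted p = 0.216), with values of −0.13, −0.18 and −0.064 in the SNI group, against 0.079, 0.11 and 0.064 in the controls. Kif1a, the carrier of synaptic vesicle precursors, was at −0.056 (95% confidence interval −0.19 to 0.077), and Kif1b, a related carrier, at 0.011 (95% confidence interval −0.15 to 0.17). Of the 18 transport kinesins with their adaptors, 2 were nominally higher and 2 lower (22.2% in all, against 13.2% of all genes), with a median of −0.050.

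The 11 mitotic kinesins had a median difference of 0.010 and ran from −0.12 (Kif23) to 0.18 (Kif20a). Kif20a, needed for cytokinesis, was nominally higher, with values of 0.049, 0.055 and 0.12 in the SNI group, against −0.17, −0.049 and −0.11 in the controls, and a difference of 0.18 (SE 0.057, limma adjusted p = 0.249), a call that was lost without SNI sample 3. Of 12 markers of dividing cells, none was nominally changed, and the mean of the list lay between −0.017 and 0.058 in the SNI samples and between −0.045 and 0.072 in the control samples. The 7 other kinesins held no nominal change. The lowest was Kif2a, a depolymerase of microtubules, at −0.15 (95% confidence interval −0.34 to 0.032). Of its 3 probe sets, 2 were nominally lower (−0.25 and −0.19), while the other was at −0.015.

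The RefSeq promoter windows of the 2 lowest and the 2 highest nominally changed members are shown because these motors carry the ends of the range. Each window spans 300 bases on the assembly GRCr8, 5′ to 3′. For 69.3% of the promoters these are 250 bases before and 50 from the start of the gene. Capitals mark the GC box GGGCGG, or its reverse complement CCGCCC, and the cAMP response element TGACGTCA.
Dync1li1, chr8:123254720-123255019, plus strand: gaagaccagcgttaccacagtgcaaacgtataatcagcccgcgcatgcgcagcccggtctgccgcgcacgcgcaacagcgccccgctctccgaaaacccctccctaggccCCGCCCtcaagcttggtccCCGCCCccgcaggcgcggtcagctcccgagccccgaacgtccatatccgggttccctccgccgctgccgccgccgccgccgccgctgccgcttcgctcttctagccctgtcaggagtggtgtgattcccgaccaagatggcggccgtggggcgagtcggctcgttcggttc
Dync1i1, chr4:34819191-34819490, plus strand: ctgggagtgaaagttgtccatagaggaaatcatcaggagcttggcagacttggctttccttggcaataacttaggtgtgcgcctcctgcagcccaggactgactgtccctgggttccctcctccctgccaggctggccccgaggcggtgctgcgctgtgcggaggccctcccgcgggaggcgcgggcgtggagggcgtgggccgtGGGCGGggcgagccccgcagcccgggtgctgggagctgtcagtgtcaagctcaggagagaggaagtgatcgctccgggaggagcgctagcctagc
Kif5c, chr3:54441057-54441356, plus strand: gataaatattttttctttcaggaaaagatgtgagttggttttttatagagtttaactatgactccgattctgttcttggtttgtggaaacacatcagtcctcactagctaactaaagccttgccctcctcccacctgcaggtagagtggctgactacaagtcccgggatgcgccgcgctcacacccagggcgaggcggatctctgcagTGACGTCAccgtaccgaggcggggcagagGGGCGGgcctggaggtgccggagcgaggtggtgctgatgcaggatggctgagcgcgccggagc
Kif1c, chr10:55912843-55913142, plus strand: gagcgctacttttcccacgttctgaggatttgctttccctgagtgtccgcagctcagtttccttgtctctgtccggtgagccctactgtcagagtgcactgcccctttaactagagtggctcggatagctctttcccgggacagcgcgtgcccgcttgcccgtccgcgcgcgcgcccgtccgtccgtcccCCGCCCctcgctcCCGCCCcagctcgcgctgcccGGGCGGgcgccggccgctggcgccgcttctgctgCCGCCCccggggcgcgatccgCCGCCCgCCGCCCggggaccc
The windows of Dync1li1 and Dync1i1 held 2 and 1 GC boxes, that of Kif1c 6 and that of Kif5c 1. The cAMP response element was present in the window of Kif5c alone among these 4. Over the 64 members with a window, 40 held a GC box on either strand (62.5%, against 34.9% of 27457 windows of the genome) and 5 held TGACGTCA (7.81%, against 1.91%). TATAAA, on either strand, was found in 14.1% of the members' windows and in 14.3% of all. The members' windows were also richer in G and C, with a median of 62.3% against 52.3%. A match is only a run of letters, and binding was not measured.

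Among the tubulins, Tubb4b, a beta tubulin made in most tissues, was the 1 nominally lower gene. Its values were −0.16, −0.051 and −0.047 in SNI samples 1, 2 and 3, against 0.055, 0.047 and 0.19 in control samples 1, 2 and 3, without overlap, and its difference was −0.18 (SE 0.064, limma adjusted p = 0.298). The call was lost without SNI sample 1 and without control sample 3. The beta tubulins typical of neurons lay closer to 0. Tubb3, the classical neuronal isotype, was at 0.024 (95% confidence interval −0.14 to 0.19), Tubb2a at −0.047 (−0.18 to 0.086), Tubb2b at 0.093 (−0.099 to 0.29) and Tubb4a at −0.075 (−0.23 to 0.085). Tubb2b and Tubb3 were the 2 tubulins with a difference above 0. The alpha tubulins Tuba4a (−0.094) and Tuba8 (−0.19) overlapped between the groups. The 5 genes of gamma tubulin and its ring complex lay between −0.19 (Tubgcp3) and −0.039 (Tubgcp4), none of them nominally changed. Tuba1a, a major alpha tubulin of neurons, was read here only by a probe set that carries other symbols too and was no member. Tubulin genes are close in sequence, so a probe set may also take up related transcripts.

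Of the microtubule-associated proteins, Map2 and Map4 were nominally higher and Map1b nominally lower. Map2, the marker of dendrites, had values of 0.10, 0.047 and 0.069 in SNI samples 1, 2 and 3, against −0.029, −0.27 and −0.18 in control samples 1, 2 and 3. The groups did not overlap, and the difference was 0.23 (SE 0.071, limma adjusted p = 0.246). Map4, a protein found in glia and many other cells, had values of 0.076, 0.053 and 0.077 in the SNI group, against −0.21, −0.026 and −0.092 in the controls, and a difference of 0.18 (SE 0.062, limma adjusted p = 0.296), a call lost without SNI sample 1, SNI sample 3 or control sample 1. Map1b, an axonal protein of growing neurons, had values of −0.053, −0.093 and −0.077 in the SNI group, against 0.18, 0.053 and 0.15 in the controls, and a difference of −0.20 (SE 0.056, limma adjusted p = 0.229). The calls of Map1b and Map2 held with any 1 sample left out, but with the hybridization controls as a covariate Map2 was at −0.0054 and not nominally changed. Mapt, which encodes tau, was at 0.038 (95% confidence interval −0.086 to 0.16), Map1a at 0.057 (−0.086 to 0.20) and Map6, which protects microtubules from cold, at −0.089 (−0.22 to 0.043).

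The 4 stathmins lay within a narrow range, from −0.14 to −0.066. Stmn3 was nominally lower, at −0.14 (SE 0.060, limma adjusted p = 0.379), with values of −0.075, −0.0023 and −0.083 in the SNI group, against 0.11, 0.0023 and 0.15 in the controls. That call stood at the threshold and was lost without SNI sample 1, 2 or 3 and without control sample 1 or 3, and it was kept in only 2 of 14 alternatives. Stmn2, a protein of axon growth and repair, was at −0.12 (95% confidence interval −0.25 to 0.0051) and Stmn1 at −0.11 (−0.24 to 0.023), and for both every SNI sample was below every control sample. Stmn4 was at −0.066 (−0.21 to 0.080), with overlap.

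Nefl, Nefm and Nefh varied widely between samples of one group, and in each neurofilament gene the samples of the groups overlapped. Nefm, the medium chain, had values of −0.25, 0.065 and −0.065 in SNI samples 1, 2 and 3, against 0.11, −0.067 and 0.34 in control samples 1, 2 and 3. Control sample 3 was the highest and SNI sample 1 the lowest, while SNI sample 2 lay above control sample 2. The difference was −0.21 (SE 0.12, limma adjusted p = 0.486), with a 95% confidence interval of −0.48 to 0.056. Nefl, the light chain, had the same samples at both ends, with values of −0.16, 0.078 and −0.097 in the SNI group, against 0.092, −0.083 and 0.25 in the controls, and a difference of −0.15 (95% confidence interval −0.37 to 0.080). Nefh, the heavy chain, had values of −0.37, 0.086 and −0.020 in the SNI group, against 0.020, −0.37 and 0.19 in the controls, and a difference of −0.052 (−0.42 to 0.32), where SNI sample 1 and control sample 2 were about equally low. Ina, alpha-internexin, stayed within −0.034 and 0.090 in all 6 samples and was at −0.028 (−0.16 to 0.10). Without control sample 2, Nefm (−0.31) and Nefl (−0.23) were nominally lower.

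Markers of oligodendrocytes, the myelin-forming cells, also varied widely within each group. The mean of the 9 measured markers was −0.11, 0.025 and −0.041 in SNI samples 1, 2 and 3, against 0.13, −0.14 and 0.30 in control samples 1, 2 and 3. Control sample 3 was the highest, as in Nefl, Nefm and Nefh. Control sample 2 was the lowest and SNI sample 1 the next lowest, whereas SNI sample 1 was the lowest in each of these 3 genes. Of the 9 markers 1, Cldn11 (−0.33), was nominally lower. The part of these markers in the neurofilament values was not tested.

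**Figure D3:**
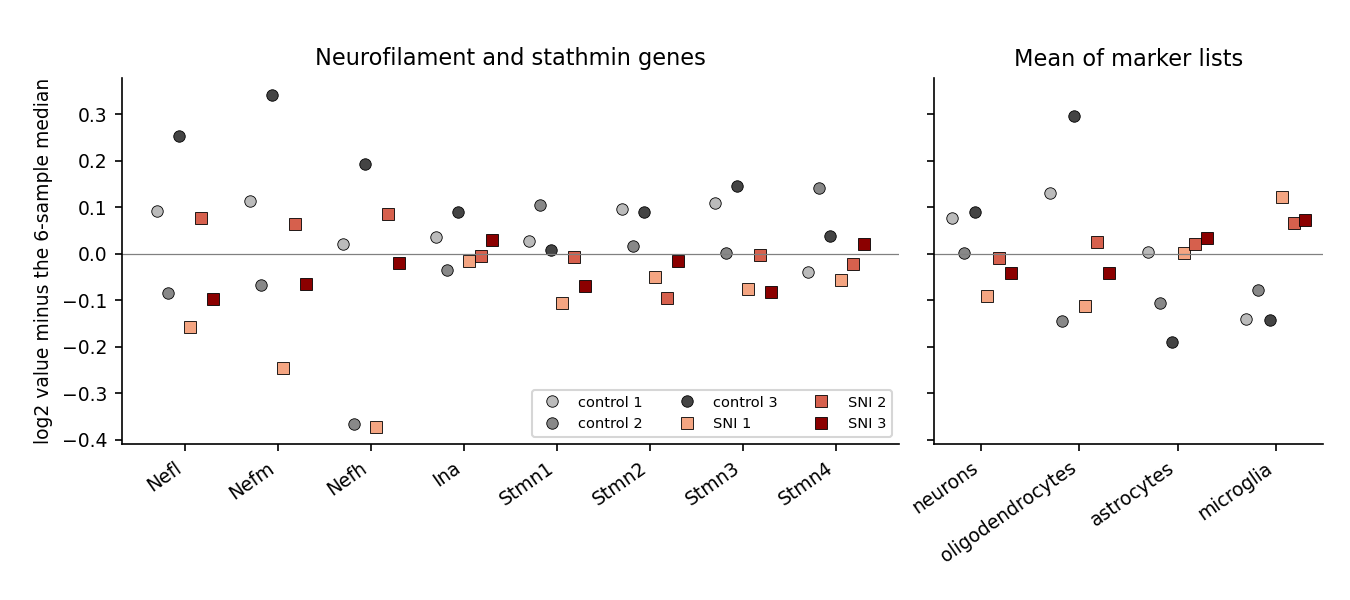
Left, centred log2 value in each of the 6 samples (y axis) for the neurofilament and stathmin genes (x axis). Right, the mean of the same values over the measured markers of 4 cell types. Grey circles are control samples and red squares SNI samples, each shade a sample. In Nefm the samples spread from −0.25 to 0.34 and overlap between the groups, whereas the SNI samples of Stmn2 lie between −0.094 and −0.016, all below the controls.

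Markers of other cell types were also compared between the groups, and none passed an adjusted p of 0.05 in limma over all genes. For comparison, 3.96% of all genes were nominally higher, 9.19% were nominally lower and 54.8% had a difference below 0. Of 15 neuronal markers outside the members, 13 (86.7%) had a difference below 0, 3 (20.0%) were nominally lower (Syt1 at −0.38, Thy1 at −0.32 and Snap25 at −0.13) and 1, Camk2a at 0.29, was nominally higher. The mean of this list ran from −0.092 to −0.010 in the SNI samples and from 0.0025 to 0.090 in the control samples. Of 12 microglial markers, 7 (58.3%) were nominally higher and none lower, with means from 0.066 to 0.12 against −0.14 to −0.077. Of 9 astrocyte markers measured, 8 had a difference above 0 and 1 (11.1%) was nominally higher, with means from 0.0015 to 0.033 against −0.19 to 0.0046. The 6 markers of ependyma and ciliated cells, which use many motors, held no nominal change. The part of these cell types in the values of the members was not tested.

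Several members are read by more than 1 probe set, and these did not always run together. Of 32 such members, 21 had all probe sets on one side of 0 and 11 on both sides. Both probe sets of Dync1li1 (−0.25 and −0.22) and of Map2 (0.19 and 0.27) were nominally changed, as were 2 of the 3 of Map1b (−0.30, −0.24 and −0.074). The 3 of Kif5c lay at 0.13, 0.22 and 0.65, and in the highest of them control sample 3 lay far below all other samples. In Kif3c 1 probe set was at −0.34 and the second at −0.079.

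In other genes a mean hides the split. Kif26b, a kinesin of the kinesin-11 family, had 1 probe set at 0.51 (SE 0.070, limma adjusted p = 0.0683 over all probe sets), the lowest adjusted p among the 129. Its samples were at 0.19, 0.26 and 0.37 in the SNI group, against −0.19, −0.30 and −0.23 in the controls, without overlap. The other 3 probe sets of Kif26b were at −0.24, −0.11 and 0.14, so the gene mean was 0.075. Kif1a had 1 probe set at −0.32, nominally lower and with no overlap of the groups, and the other 2 at 0.048 and 0.10. Kifap3 (−0.24, −0.10 and 0.14) and Klc1 (−0.28, −0.054, −0.035 and 0.00052) were likewise divided. Probe set positions along the transcripts were not used here. Over single probe sets, 27 of 129 were nominally changed (20.9%, against 13.1% of all probe sets), 17 lower and 10 higher.

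**Figure D4:**
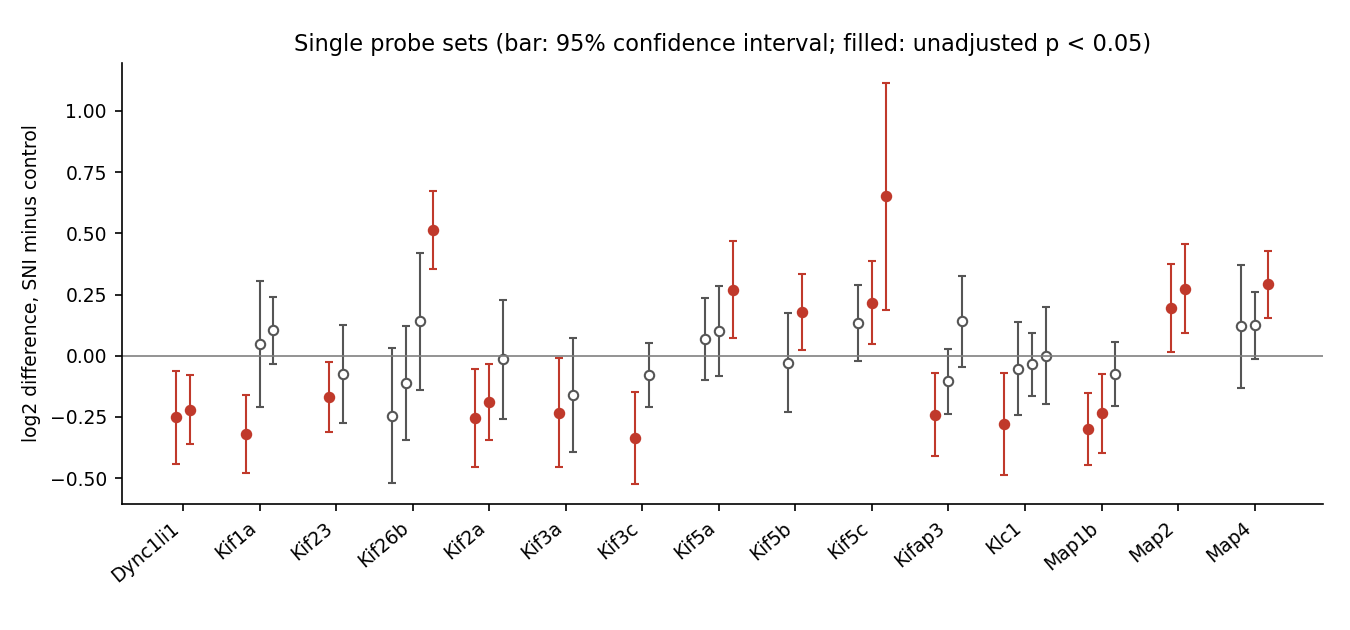
Log2 difference, SNI group minus control group (y axis), of each probe set of the 15 members (x axis) that have several probe sets and at least 1 with an unadjusted p under 0.05. Points are single probe sets, filled where the unadjusted p was under 0.05, and bars are 95% confidence intervals from limma. The probe sets of Map2 lie together at 0.19 and 0.27, while those of Kif26b run from −0.24 to 0.51.

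Because the hybridization controls differed between the groups, each difference was also fitted with their mean per array as a covariate. These means ran from 0.054 to 0.19 on the SNI arrays and from −0.22 to −0.047 on the control arrays. The covariate thus largely follows the group, and the fit is less precise (SE of Dync1i1 0.12, against 0.055 without it). A lost call or a turned sign in it cannot be told apart from this loss of precision. In that fit Dync1i1 (−0.31), Kif3c (−0.37), Map1b (−0.30), Dctn4 (−0.37) and Map4 (0.32) were still nominally changed in the same direction. Kif5c (0.045), Map2 (−0.0054) and Tubb4b (−0.023) were not. Dync1li1 (−0.20), Kif1c (0.29), Kifbp (−0.23), Kif20a (0.29), Stmn3 (−0.12) and Dync1h1 (−0.15) had differences of the same sign and lost the nominal call. Nefl, Nefm and Nefh turned to 0.023, 0.059 and 0.21. Leaving out control sample 2, which lay nearest to the SNI samples on the first principal component, raised the nominally lower members from 9 to 17 (21.5%) and the higher ones from 5 to 7 (8.86%). In that fit 14.6% of all genes were nominally lower and 8.53% higher.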

How the data were processed

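RNA of the contralateral PL was read on Affymetrix GeneChip rat expression arrays, 3 per group. The authors corrected the signals by RMA, took log2 and applied quantile normalization. The deposited log2 values are also centred, so that every probe set has a median of 0 across the samples. How this was done is not stated in the labels or methods, and it leaves no level or background to read. For RMA the software version is not given in the sources used here. The 57 array controls were left out, and 20826 of the 31042 remaining probe sets carried 1 symbol. The values of these were averaged per gene, and limma 3.58.1 (R 4.3.3, lmFit and eBayes, two-sided, no covariate) was fitted over all 14217 genes with Benjamini-Hochberg adjustment. All 79 symbols matched RefSeq by gene ID. Plots were drawn with matplotlib 3.10.9.

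The members, classes and lists were chosen with earlier results of these data known. Named with values are the neurofilament, stathmin and microtubule-associated protein genes, a fixed list of neuronal motors and tubulins, and the 6 largest differences in each direction among nominally changed members without overlap. The other members named were chosen after their values were seen. Alternatives were repeated quantile normalization, aligned array medians, the methods' t-test, robust variances, other ways to combine probe sets, stricter and looser thresholds, the hybridization controls as a covariate, the replicate number as a block, and each sample left out. Neither a background correction nor a filter on dim probe sets could be tried on centred values.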

Additional observations from a re-analysis of the deposited data

How the results depend on the processing

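No member passed an adjusted p of 0.05 under any alternative. The 9 lower and 5 higher members became 5 and 1 at an unadjusted p under 0.01. Over single probe sets they became 17 and 10 (20.9% together, against 13.1% of all probe sets). With a sample left out the lower ones numbered 6 to 17 and the higher ones 3 to 7, the 17 without control sample 2 and the 3 without SNI sample 3. Of all genes 5.69% to 14.6% were then lower and 2.36% to 8.53% higher, against 7.59% to 21.5% and 3.80% to 8.86% of the members. In the fit with the hybridization controls 8 were lower (10.1%, against 4.42% of all genes) and 1 was higher (1.27%, against 4.05%). They held only 5 of the 14 called without the covariate. The others were Tubgcp2 (−0.62), Tubgcp3 (−0.44), Dync2h1 (−0.41) and Dctn6 (−0.38), which were not nominally changed without it. The median of the neurofilaments turned from −0.099 to 0.041 in that fit. Nonoverlapping groups, 19 with all samples, numbered 24 to 42 with 1 sample fewer, which eases the criterion, and 43 over single probe sets. For these alternatives, and for an unadjusted p under 0.01, the share of all genes was not counted. The medians of the motors and tubulins stayed below 0 throughout. Among the 35 named members a sign turned in 19 cases over all alternatives, most of them with the hybridization controls as a covariate. With the covariate these were Nefl (0.023), Nefm (0.059), Nefh (0.21), Kif5b (−0.015), Klc1 (0.088), Map2 (−0.0054), Map6 (0.053), Stmn4 (0.094), Tubb2b (−0.15) and Tubb4a (0.057). Without probe sets shared between transcripts they were Ina (0.0054) and Mapt (−0.011), and with the median of the probe sets Kif1a (0.012). With a sample left out, Ina ran from −0.060 to 0.0020, Kif1b from −0.048 to 0.067, Nefh from −0.21 to 0.084 and Tubb3 from −0.036 to 0.084. The cause of these turns was not tested. Deviations of same-numbered samples from their group means had correlations over all genes of −0.022, −0.0074 and −0.045. That check cannot exclude a pairing, and the labels name none. The replicate number as a block gave 9 lower and 5 higher members (11.4% and 6.33%, against 7.46% and 3.51% of all genes). They held 12 of the 14 called without it. The 2 that lost the call were Dync1h1 and Stmn3. Precision is limited by the number of arrays, as over 3 arrays a group exact permutation p-values stop at 0.1.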

Other observations

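Probe sets whose annotation joins a tubulin or motor symbol with other genes were not members. There were 8, of which 1 was nominally changed. The 4 that join Kif1b with Cenps, Pgd and Cort were at −0.21, −0.088, −0.025 and 0.14, and the 2 that join Tubb4b with C7 at −0.23 and −0.086. The nominally changed probe set, shared by Tuba1a, Tuba1b and Tuba1c, had values of −0.098, −0.083 and −0.051 in the SNI group, against 0.051, 0.11 and 0.055 in the controls, and a difference of −0.15 (95% confidence interval −0.28 to −0.016), with every SNI sample below every control sample. The one shared by Dctn3 and a related gene had values of −0.17, −0.028 and −0.090 in the SNI group, against 0.028, 0.033 and 0.070 in the controls and a difference of −0.14 (−0.29 to 0.0051).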
